A study of Mus musculus with 6 samples.

Results

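Krüppel-like factor (KLF) genes were examined for chromatin accessibility in group 2 innate lymphoid cells (ILC2s) of the mouse lung, sorted as Lin-CD25+ST2+ cells. The 8 genes were Klf2, Klf3, Klf4, Klf6, Klf7, Klf10, Klf12 and Klf13, and their regions were the accessible regions that overlapped one of them or, where a region overlapped no protein-coding gene, had one of them as the nearest gene within 100 kb. By this rule 93 of the 57203 regions counted in all libraries belonged to the 8 genes, and 92 of them were among the 56007 regions with enough counts to be tested. Klf6 held 22 regions, Klf7 19, Klf13 16, Klf12 14, Klf3 7, Klf4 6, Klf10 5 and Klf2 4. The nearest gene is a label of position and says nothing of which gene a region controls.

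All mice were wild-type, and female unless stated otherwise. Memory cells came from mice given 30 µg of intranasal papain, a protease allergen, per day for 3 days and then rested for 2 months. Effector cells came from mice given the same daily amount for 3 days, and naive cells from PBS-treated mice (3 days). Each state had 2 libraries, and a library was made from about 50000 sorted cells pooled over 2 to 4 mice, with different pools for different libraries. The title of the study names Brg1, a chromatin remodelling ATPase, and all 6 libraries used here were of the wild-type genotype. ATAC-seq reads accessibility from the places where the Tn5 transposase could insert sequencing adapters. A higher count can come from more cells with an open site or from more insertions in each cell, and these cannot be told apart in pooled cells.

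KLF proteins are transcription factors that bind GC boxes and CACCC boxes through C2H2 zinc fingers at their C-terminal end. In lymphocytes the family is known above all for the resting state: KLF2 keeps T cells quiescent and sustains the genes with which they leave tissues, and KLF4 restrains proliferation. KLF3 and KLF12 recruit the corepressor CtBP, KLF6 is an immediate early factor of many tissues, KLF7 is best known from neurons, KLF10 is induced early by TGF-beta, and KLF13 is known in T cells as an activator of the chemokine gene Ccl5.

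The promoters of 4 genes are shown because the region over each of these starts is described next: Klf2 and Klf7, whose start regions changed, and Klf4 and Klf6, whose start regions did not pass the test. Each runs 5′ to 3′ on the strand of the gene, from 250 bases before to 50 after the start in RefSeq (GRCm38.p6, the build mm10). The Klf2 promoter lay at chr8:72318812-72319111 on the plus strand, Klf7 at chr1:64121340-64121639 on the minus strand, Klf4 at chr4:55532426-55532725 on the minus strand and Klf6 at chr13:5861239-5861538 on the plus strand. Capitals mark GC boxes (GGGCGG on either strand), CACCC boxes (CCACCC on either strand) and, in Klf2, a motif of the MEF2 type (CTA and TAG with 4 bases of any kind between them, the same on both strands).
Klf2: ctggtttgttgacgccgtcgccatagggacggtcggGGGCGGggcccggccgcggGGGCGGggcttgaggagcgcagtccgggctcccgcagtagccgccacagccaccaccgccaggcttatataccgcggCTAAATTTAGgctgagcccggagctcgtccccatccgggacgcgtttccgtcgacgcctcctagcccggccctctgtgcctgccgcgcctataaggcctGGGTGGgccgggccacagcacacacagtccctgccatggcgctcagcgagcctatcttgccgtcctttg
Klf7: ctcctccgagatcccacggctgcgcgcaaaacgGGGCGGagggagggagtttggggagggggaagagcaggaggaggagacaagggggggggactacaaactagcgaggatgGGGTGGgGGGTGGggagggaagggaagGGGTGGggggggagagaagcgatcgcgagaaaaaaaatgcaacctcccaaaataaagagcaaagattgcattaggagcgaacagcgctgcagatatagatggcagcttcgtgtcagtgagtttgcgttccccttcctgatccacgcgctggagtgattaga
Klf4: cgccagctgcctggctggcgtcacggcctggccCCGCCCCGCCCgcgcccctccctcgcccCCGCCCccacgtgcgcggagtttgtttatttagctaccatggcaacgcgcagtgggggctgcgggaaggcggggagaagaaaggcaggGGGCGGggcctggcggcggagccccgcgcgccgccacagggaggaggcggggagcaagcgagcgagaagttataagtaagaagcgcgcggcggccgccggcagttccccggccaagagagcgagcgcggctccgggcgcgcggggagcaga
Klf6: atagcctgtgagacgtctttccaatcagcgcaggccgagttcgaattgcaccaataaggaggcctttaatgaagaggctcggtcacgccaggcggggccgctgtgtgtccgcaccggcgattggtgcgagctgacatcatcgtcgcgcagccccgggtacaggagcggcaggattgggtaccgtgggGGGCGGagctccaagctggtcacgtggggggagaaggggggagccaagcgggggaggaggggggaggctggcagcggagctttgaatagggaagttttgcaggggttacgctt

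The table of promoters matched 7 of the 8 genes (all but Klf10). Of these 7, 6 held GGGCGG, against 35.7% of 32851 mouse promoters of the same length. The Klf12 promoter, which had no match, lay inside the annotated gene and not at its upstream end. CCACCC, the box bound by KLF proteins themselves, stood in 4 of the 7, against 31.5% of all promoters. The MEF2 type motif stood in 1 of the 7, against 3.69% of all, and that match, CTAAATTTAG in Klf2, began 118 bases before the start. In the Klf13 promoter a GC box and a CACCC box overlapped. Other motifs, searched on both strands, stood in none of the 7 promoters. The AP-1 site TGANTCA was found in 7.81% of all promoters and the GATA site AGATAA in 11.2%. The ETS site CCGGAAG was found in 8.86%, the CRE site TGACGTCA in 1.79% and the FOXO site TGTTTAC in 3.65%. These are matches of letters in a window and not bound sites.

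The libraries held 11995095 and 20591102 counts in the memory group, 14872821 and 16397249 in the effector group, and 12964912 and 16910329 in the naive group. Levels are CPM (counts scaled to a common library size) with TMM factors. Regions of all 10 ILC2 marker genes listed (such as Gata3, Rora and Il1rl1) were present, with summed levels of 4248 and 3878 CPM in memory, 4526 and 3826 CPM in effector and 4068 and 3765 CPM in naive libraries. Of the lung endothelium, in which Klf2 and Klf4 are also active, 6 of 8 markers had a region (Tek and Tie1 had none), with sums of 238 and 226 CPM in memory, 230.1 and 227 CPM in effector and 231 and 213 CPM in naive libraries. Of the myeloid markers 5 of 8 had a region (Adgre1, Csf1r and Lyz2 had none), with sums of 298 and 295 CPM in memory, 305 and 311 CPM in effector and 300.0 and 286 CPM in naive libraries. Cebpb made up most of each sum, and its effector libraries overlapped the memory and naive ones. Itgam had 3.09 and 3.59 CPM in memory, 17.7 and 12.9 CPM in effector and 4.32 and 3.23 CPM in naive libraries. Itgax was also highest in effector libraries, with 0.970 and 0.197, 1.88 and 1.83, and 0.160 and 0.117 CPM in the same order. Spi1 was lower in effector (24.1 and 21.9 CPM) than in naive libraries (24.8 and 29.4 CPM). Cd68 overlapped between effector (11.9 and 6.87 CPM) and naive libraries (7.04 and 2.88 CPM). Of the B cell markers, Cd79a and Ms4a1 had no region, and the markers with a region had sums of 25.4 and 26.8 CPM in memory, 45.2 and 46.0 CPM in effector and 35.7 and 32.7 CPM in naive libraries. Replicate 1 was higher than replicate 2 in all 3 groups in a set of KLF regions, whose values are given further on, and no label says what libraries of one number share.

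At transcription starts, Klf2 and Klf7 were less accessible in effector than in naive ILC2s and more accessible in memory than in effector ILC2s. The Klf2 start region (chr8:72318553-72319777) had 127 and 109 CPM in memory, 81.3 and 79.2 CPM in effector and 117 and 106 CPM in naive libraries. Both effector libraries lay below all 4 others, and memory and naive libraries overlapped. The log2 fold change was −0.48 ± 0.13 (SE) for effector against naive (edgeR quasi-likelihood test with Benjamini-Hochberg adjustment over all tested regions, adjusted p = 0.0155) and 0.55 ± 0.13 for memory against effector (edgeR adjusted p = 0.00534). The effector to naive call did not survive leaving out naive replicate 1 (edgeR adjusted p = 0.141), effector replicate 1 (0.0942) or effector replicate 2 (0.0827), nor TMM taken from the fifth of regions ranked highest by mean count (0.100) or a loess offset on abundance (0.172). The memory to effector call was lost under the same pair of scalings (edgeR adjusted p = 0.0594 and 0.105).

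The Klf7 start region (chr1:64120238-64122593) had 177 and 155 CPM in memory, 122 and 121 CPM in effector and 159 and 157 CPM in naive libraries, so the effector libraries again lay below the other 4. Its log2 fold change was −0.38 ± 0.12 for effector against naive (edgeR adjusted p = 0.0389) and 0.45 ± 0.12 for memory against effector (edgeR adjusted p = 0.0134). The effector to naive call was lost in 7 of 13 alternatives: total counts alone (edgeR adjusted p = 0.0830), TMM on the highest regions (0.276), the loess offset (0.539) and leaving out naive replicate 1 (0.178), naive replicate 2 (0.137), effector replicate 1 (0.178) or effector replicate 2 (0.143). The memory to effector call was lost under TMM on the highest regions (0.186), the loess offset (0.373) and without effector replicate 1 (0.0874), effector replicate 2 (0.0701) or memory replicate 1 (0.0819).

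The other start regions did not pass the test in any comparison. Klf6 (chr13:5860536-5863808), the start region with the highest level in memory cells, had 272 and 182 CPM in memory, 179 and 151 CPM in effector and 230.4 and 196 CPM in naive libraries, with a log2 fold change of −0.37 ± 0.17 for effector against naive (edgeR adjusted p = 0.161). Klf4 (chr4:55529681-55533705) had 198 and 139 CPM in memory, 154 and 132 CPM in effector and 212 and 163 CPM in naive libraries (log2 fold change −0.39 ± 0.17, edgeR adjusted p = 0.137 for effector against naive). In Klf6 the effector libraries lay below the other 4, and in Klf4 they overlapped the memory libraries. Klf13 (chr7:63938378-63940206) had 204 and 196 CPM in memory, 188 and 165 CPM in effector and 240.1 and 207 CPM in naive libraries, with a log2 fold change of −0.34 ± 0.13 for effector against naive (edgeR adjusted p = 0.0765). Klf3 (chr5:64802530-64804418), the lowest of the 6, had 39.1 and 39.7 CPM in memory, 41.4 and 36.9 CPM in effector and 45.2 and 38.5 CPM in naive libraries, and its 3 groups overlapped. The region over one end of Klf10 (chr15:38299037-38302107), whose strand is not in the reference table used here, had the highest level of all KLF regions, with 351 and 289.9 CPM in memory, 261 and 244 CPM in effector and 351 and 287 CPM in naive libraries. Its log2 fold change was −0.34 ± 0.13 for effector against naive (edgeR adjusted p = 0.100).

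Per kilobase of region, the order by mean level in memory cells was Klf13 with 110 CPM per kb, Klf10 with 104, Klf2 with 96.3, Klf7 with 70.5, Klf6 with 69.4, Klf4 with 41.8 and Klf3 with 20.9. The order was the same in the other states, with 96.7 CPM per kb for Klf13, 65.5 for Klf2 and 20.8 for Klf3 in effector cells and 122, 91.3 and 22.2 in naive cells. In the memory libraries Klf10 overlapped both of its neighbours in this order and Klf6 overlapped Klf7, so that these pairs did not differ beyond their spread. The RefSeq promoter of Klf12 (chr14:100149747-100150046) overlapped no counted region. It lay inside the annotated gene (chr14:99866181-100285891, minus strand) and not at its upstream end. A counted region over that end is described further on. All 6 start regions had log2 fold changes below 0 for effector against naive, with a median of −0.37, which was −0.18 under TMM on the highest regions and −0.09 under the loess offset, and Klf3 turned to 0.10 under TMM on the highest regions, 0.06 under the loess offset and 0.02 without naive replicate 1. The median over the fifth of all regions with the highest mean counts was −0.20.

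**Figure D1:**
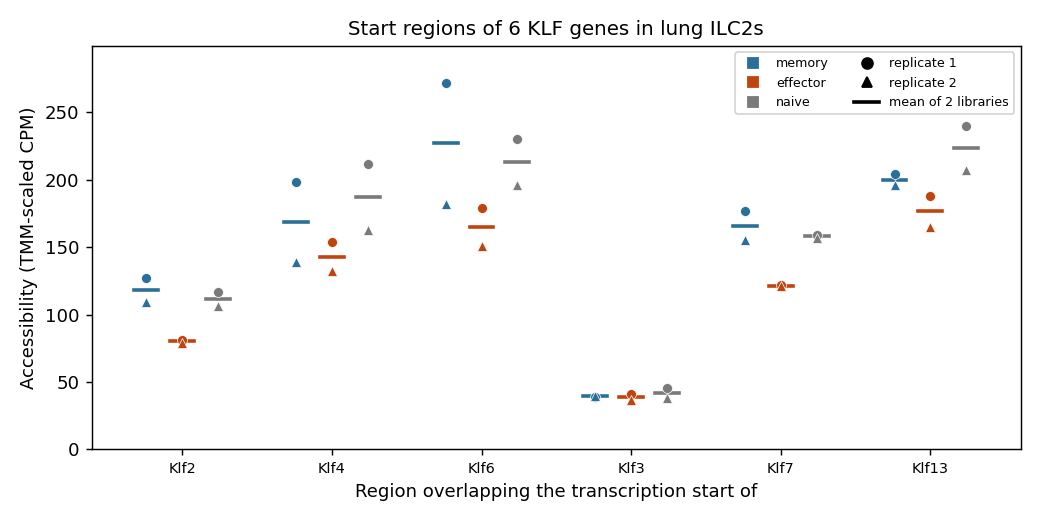
Accessibility (TMM-scaled CPM, linear axis from 0) of the regions over 6 KLF transcription starts in memory, effector and naive ILC2s; circles are replicate 1, triangles replicate 2 and bars the mean of 2 libraries. The effector libraries of Klf2 (81.3 and 79.2 CPM) and Klf7 (122 and 121 CPM) lie below all memory and naive libraries of the same region.

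Of the 92 tested regions, 9 were more accessible in effector than in naive cells (9.78%, against 11.5% of all tested regions) and 5 were less accessible (5.43%, against 4.98%). These shares were near those of all tested regions. The median log2 fold change was −0.24 over the KLF regions, against 0.00 over all tested regions. With TMM on the highest regions, which moves all regions by nearly the same amount, the medians were −0.04 and 0.20. Under the loess offset they were −0.16 and −0.02. Of the KLF regions, 26 were in the fifth of all tested regions with the highest mean counts. All 9 gains lay outside the gene body, 6 of them around Klf6, 2 around Klf7 and 1 around Klf2, and 53 of the 92 tested regions lay outside. Of all tested regions outside genes 13.5% were called more accessible, against 10.3% of those overlapping a gene. Of the 27 tested regions of myeloid markers 6 were more and 0 less accessible in effector than in naive cells (median log2 fold change 0.43). Of the 11 of B cell markers 2 were more and 0 less accessible (median 0.29), and of the 29 of endothelium 4 and 0 (0.12). Of the 12 of T cell markers 1 was more and 0 less accessible (0.14), and of the 19 of stroma 1 and 0 (−0.06). Of the 17 of epithelium 0 were more and 1 less accessible (0.33), and of the 22 of mast cells and basophils 1 and 4 (−0.33). The fifth of all tested regions with the lowest mean counts had a median of 0.55, and the fifth with the highest −0.20. The part of these cell types in the KLF gains was not tested. Of the 5 KLF losses, 4 overlapped their gene, 2 of them in Klf7, 1 in Klf2 and 1 in Klf13. Of all tested regions overlapping a gene 5.09% were called less accessible, against 4.23% of those outside genes. The count of gains was 4 without naive replicate 1, 4 without effector replicate 1 and 6 without naive replicate 2. The count of losses was 3 without naive replicate 1, 2 without effector replicate 1, 9 without memory replicate 1 and 8 without memory replicate 2. With TMM on the highest regions 13 regions were called more and 2 less accessible, so that gains made up 86.7% of calls, against 64.3% in the main analysis. Over all tested regions the share of gains was 92.1% under that scaling, against 69.8% in the main analysis, and the median stood at 0.20 on the log2 scale.

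The largest gains in these genes lay downstream of Klf2 and Klf6. A region 8.82 kb beyond the end of Klf2 (chr8:72330477-72331868) had 3.53 and 3.30 CPM in memory, 16.4 and 10.8 CPM in effector and 3.76 and 1.94 CPM in naive libraries. The effector libraries stood well above the other 4, and memory and naive libraries overlapped. Its log2 fold change was 2.28 ± 0.33 for effector against naive (edgeR adjusted p = 0.000214) and −2.00 ± 0.32 for memory against effector (edgeR adjusted p = 0.000433), and both calls held in all 13 alternatives. In the main analysis the Klf2 start region moved in the opposite direction to this distal site in effector cells. The effector to naive call at the start, however, was lost in 5 of the 13 alternatives, with log2 fold changes from −0.54 to −0.24.

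Downstream of Klf6, a region at 22.0 kb (chr13:5892377-5893156) had 1.50 and 1.33 CPM in memory, 8.31 and 5.96 CPM in effector and 1.3 and 1.2 CPM in naive libraries. A region at 19.3 kb (chr13:5889683-5890569) had 1.68 and 1.67 CPM in memory, 7.59 and 6.70 CPM in effector and 2.08 and 0.822 CPM in naive libraries. In both, the effector libraries lay far above the other 4, and the naive libraries of the 19.3 kb region differed from each other. For the first the log2 fold change was 2.53 ± 0.37 for effector against naive (edgeR adjusted p = 0.000251) and −2.34 ± 0.37 for memory against effector (edgeR adjusted p = 0.000353). For the second it was 2.34 ± 0.41 (edgeR adjusted p = 0.000859) and −2.09 ± 0.40 (edgeR adjusted p = 0.00147). All 4 calls held in the 13 alternatives, and the effector to naive value of the second was 3.10 without naive replicate 1 and 1.77 without naive replicate 2.

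Upstream of Klf6, the gains were smaller. A region at 91.0 kb (chr13:5769387-5770460) had 18.8 and 22.7 CPM in memory, 36.4 and 34.3 CPM in effector and 18.1 and 22.2 CPM in naive libraries, and one at 74.1 kb (chr13:5786834-5787430) had 4.23 and 4.19 CPM in memory, 11.7 and 9.45 CPM in effector and 4.24 and 5.40 CPM in naive libraries. The effector libraries were above all others in both. The first changed by 0.81 ± 0.17 for effector against naive (edgeR adjusted p = 0.00355, and 0.0580 without naive replicate 1) and the second by 1.13 ± 0.27 (edgeR adjusted p = 0.00835, but 0.0866 without naive replicate 1 and 0.119 without effector replicate 1). For memory against effector they changed by −0.76 ± 0.17 and −1.33 ± 0.27 (edgeR adjusted p = 0.00442 and 0.00257), and these calls held in all alternatives. The other 2 upstream gains in effector cells, at 71.1 and 37.8 kb, had log2 fold changes of 0.94 and 1.05 (edgeR adjusted p = 0.0312 and 0.0363). Regions beyond 50 kb from the gene count only under the wider assignment limit: with a limit of 50 kb the KLF genes had 5 gains in place of 9.

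Around Klf7 the same pattern was weaker. A region 23.7 kb downstream (chr1:64005319-64005711) had 2.47 and 1.97 CPM in memory, 5.13 and 4.93 CPM in effector and 1.52 and 2.41 CPM in naive libraries. A region 68.3 kb upstream (chr1:64190629-64192465), within the annotated gene Gm35880, had 1.85 and 1.72 CPM in memory, 5.97 and 3.78 CPM in effector and 2.08 and 1.94 CPM in naive libraries. Both had higher levels in the 2 effector libraries than in the other 4. The effector to naive log2 fold changes were 1.33 ± 0.37 (edgeR adjusted p = 0.0190) and 1.27 ± 0.37 (edgeR adjusted p = 0.0271), and those for memory against effector −1.19 ± 0.36 (edgeR adjusted p = 0.0272) and −1.45 ± 0.38 (edgeR adjusted p = 0.0120). The downstream gain was lost without naive replicate 1 (0.164), effector replicate 1 (0.117) or effector replicate 2 (0.0661). The upstream gain was lost under the loess offset (0.0723), with DESeq2 (0.0633) and without naive replicate 1 (0.101), naive replicate 2 (0.120) or effector replicate 1 (0.297). For memory against effector, the downstream call was lost under the loess offset (0.110), with DESeq2 (0.0651) and without effector replicate 1 (0.133), effector replicate 2 (0.0870), memory replicate 1 (0.0577) or memory replicate 2 (0.155). The upstream call was lost under the loess offset (0.0570) and without effector replicate 1 (0.172) or memory replicate 2 (0.0703).

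**Figure D2:**
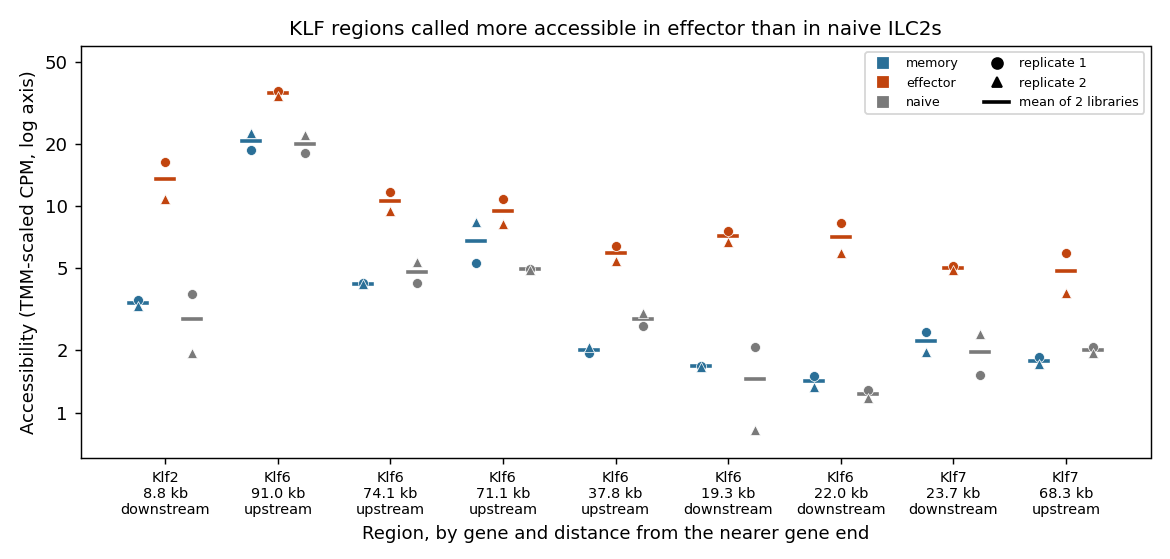
Accessibility (TMM-scaled CPM, log axis) of the 9 KLF regions called more accessible in effector than in naive ILC2s, by gene and distance from the nearer gene end; circles are replicate 1, triangles replicate 2 and bars the mean of 2 libraries. The Klf2 region at 8.82 kb stands at 16.4 and 10.8 CPM in effector libraries, with memory and naive libraries at or below 3.76 CPM.

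Klf13 and Klf7 held the losses in effector cells with the smallest adjusted p. Inside Klf13, a region (chr7:63896345-63898086) had 75.1 and 54.6 CPM in memory, 38.2 and 35.6 CPM in effector and 62.0 and 59.9 CPM in naive libraries. It fell by 0.72 ± 0.15 on the log2 scale for effector against naive (edgeR adjusted p = 0.00334) and rose by 0.81 ± 0.15 for memory against effector (edgeR adjusted p = 0.00128), in all 13 alternatives. Both effector libraries lay below every other library. Inside Klf7, a region (chr1:64084600-64086887) had 67.4 and 62.6 CPM in memory, 41.9 and 40.2 CPM in effector and 65.1 and 59.0 CPM in naive libraries. Its log2 fold change was −0.60 ± 0.13 for effector against naive (edgeR adjusted p = 0.00433, and 0.0551 without naive replicate 1) and 0.66 ± 0.13 for memory against effector (edgeR adjusted p = 0.00174, in all alternatives).

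A region 12.8 kb upstream of Klf13 (chr7:63951686-63953174) had 17.5 and 16.1 CPM in memory, 7.27 and 10.8 CPM in effector and 14.9 and 18.1 CPM in naive libraries. The effector libraries were again the lowest. Its log2 fold change was −0.87 ± 0.22 for effector against naive (edgeR adjusted p = 0.0126) and 0.89 ± 0.22 for memory against effector (edgeR adjusted p = 0.00927). The first call was lost under TMM on the highest regions (0.0557) and without naive replicate 2 (0.106) or effector replicate 1 (0.170), and the second under TMM on the highest regions (0.0577) and without effector replicate 1 (0.127). Within Klf13, 2 more regions differed between memory and effector cells, in opposite directions. One (chr7:63921526-63922929) had 35.3 and 28.6 CPM in memory, against 20.1 and 18.8 CPM in effector libraries (log2 fold change 0.71 ± 0.17, edgeR adjusted p = 0.00595, but 0.0541 under TMM on the highest regions and 0.0623 without memory replicate 1). The other (chr7:63933000-63933619) had 11.1 and 9.16 CPM in memory, against 17.4 and 14.3 CPM in effector libraries (log2 fold change −0.65 ± 0.21, edgeR adjusted p = 0.0376). That call was lost with DESeq2 (0.0738), under the loess offset (0.0533) and without effector replicate 1 (0.255), effector replicate 2 (0.0506), memory replicate 1 (0.0546) or memory replicate 2 (0.214).

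**Figure D3:**
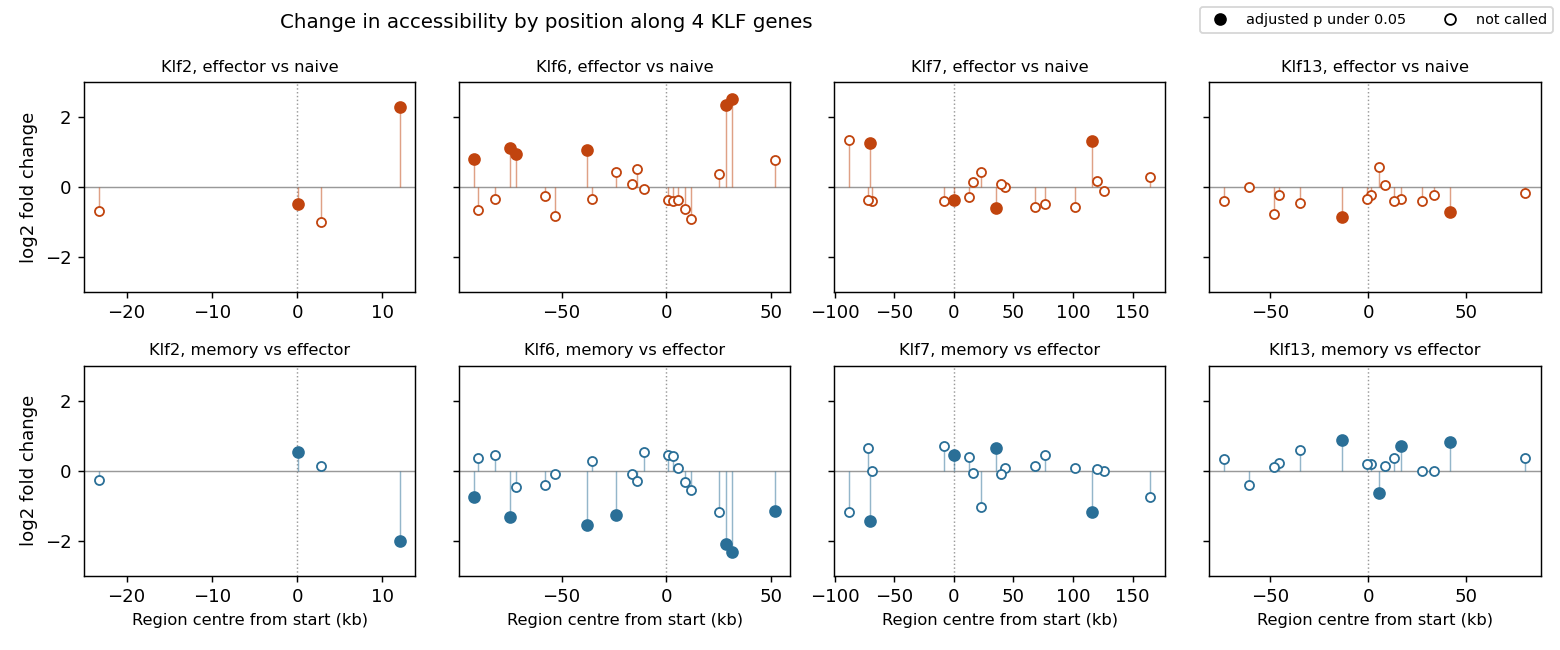
log2 fold change of each tested region of Klf2, Klf6, Klf7 and Klf13 against the distance of its centre from the transcription start (kb, negative upstream), for effector against naive (upper row) and memory against effector (lower row); filled points have an adjusted p under 0.05. The tall filled points in the upper row are the distal regions of Klf2 (2.28) and Klf6 (2.53 and 2.34), and the points of the same regions in the lower row stand at −2.00, −2.34 and −2.09.

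For memory against effector, 9 of the 92 KLF regions were more accessible (9.78%, against 7.72% of all tested regions) and 12 were less accessible (13.0%, against 13.6%). The gains belonged to Klf13 (3), Klf12 (3), Klf7 (2) and Klf2 (1), and the losses to Klf6 (7), Klf7 (2), Klf2 (1), Klf4 (1) and Klf13 (1). Of the gains 8 overlapped their gene and 1 lay outside, and of the losses 1 overlapped its gene and 11 lay outside. Of all tested regions overlapping a gene 7.90% were more and 12.5% less accessible, against 6.96% and 15.5% of those outside genes. This comparison shares its effector libraries with the one above, so the mirrored values of a region are not independent of each other. Gains numbered 4 without effector replicate 1 and 5 without memory replicate 1, and losses 6 without effector replicate 1, 7 without effector replicate 2 and 6 without memory replicate 2. With TMM on the highest regions 2 regions were called more and 16 less accessible, a share of gains of 11.1%, against 42.9% in the main analysis. Over all tested regions that share was 8.31%, against 36.1% in the main analysis, and the median stood at −0.28 on the log2 scale. The 4 Klf6 losses other than those at 22.0, 19.3 and 74.1 kb had log2 fold changes between −1.56 and −0.76, with edgeR adjusted p between 0.00382 and 0.0212.

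All 3 called regions of Klf12 were higher in memory than in effector cells. A region inside the gene (chr14:100209348-100211813) had 50.1 and 52.3 CPM in memory, 36.4 and 38.0 CPM in effector and 38.7 and 33.8 CPM in naive libraries. Both memory libraries lay above the other 4, and effector and naive libraries overlapped. The log2 fold change was 0.46 ± 0.14 for memory against effector (edgeR adjusted p = 0.0246) and 0.50 ± 0.14 for memory against naive, which did not pass the test (edgeR adjusted p = 0.160). A neighbouring region (chr14:100220985-100222903) had 27.3 and 26.5 CPM in memory, 11 and 17 CPM in effector and 15.4 and 24.4 CPM in naive libraries (memory against effector 0.93 ± 0.23, edgeR adjusted p = 0.0103). The third (chr14:100282605-100283652) had 23.4 and 22.1 CPM in memory, 12.6 and 17.2 CPM in effector and 17.6 and 17.8 CPM in naive libraries (memory against effector 0.60 ± 0.19, edgeR adjusted p = 0.0317). In all 3 the memory libraries were the highest of the 6.

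These Klf12 calls depended on scaling and on single libraries. The first was lost with total counts alone (0.0882), TMM on the highest regions (0.285), the loess offset (0.242) and without effector replicate 1 (0.139), effector replicate 2 (0.0670), memory replicate 1 (0.0544) or memory replicate 2 (0.104). The second was lost under TMM on the highest regions (0.0560) and without effector replicate 1 (0.121). The third was lost with total counts alone (0.0981), TMM on the highest regions (0.219), the loess offset (0.0903) and without effector replicate 1 (0.269), memory replicate 1 (0.108) or memory replicate 2 (0.0706). A further region over the upstream end of the annotated gene (chr14:100284301-100287076), named here after its values were seen, had 50.5 and 44.6 CPM in memory, 32.4 and 37.6 CPM in effector and 44.8 and 35.1 CPM in naive libraries (memory against effector 0.44 ± 0.15, edgeR adjusted p = 0.0524).

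One small region 8.97 kb upstream of Klf4 (chr4:55541441-55541927) was less accessible in memory than in effector cells. It held 5 counts over the 2 memory libraries, 52 over the effector libraries and 10 over the naive libraries. The ratio of scaled counts was 0.0998 for memory over effector (exact 95% counting interval 0.0311 to 0.248), an interval that covers counting error only. The effector to naive change did not pass the test (log2 fold change 2.13 ± 0.79, edgeR adjusted p = 0.0753), and that value was 4.58 without naive replicate 1, 1.13 without naive replicate 2 and 0.46 under the loess offset. The log2 fold change for memory against effector was −3.22 ± 0.88 (edgeR adjusted p = 0.0158). It was −1.35 under the loess offset (0.378) and −2.54 without memory replicate 2 (0.121), −3.90 without memory replicate 1 (0.0291), and the call was also lost without effector replicate 1 (0.116) or effector replicate 2 (0.0665).

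For memory against naive, edgeR's quasi-likelihood test called none of the 92 KLF regions in either direction. The counts were 0 more and 0 less accessible, against 0.248% and 0.0714% of all tested regions. DESeq2 called 0 as well, but with replicate number as a block in the edgeR model 1 was more and 6 were less accessible. The shares over all tested regions are those of the main analysis, and none is given here for DESeq2 or the block. In the main analysis there were 7 regions at an unadjusted p under 0.05 (7.61%, against 9.90% of all). Its smallest adjusted p was that of the Klf12 region above. The Klf2 start region had a memory to naive log2 fold change of 0.08 ± 0.13 and the distal Klf2 region 0.28 ± 0.35. For the 22.0 and 19.3 kb regions of Klf6 the values were 0.20 ± 0.41 and 0.25 ± 0.44, and for the Klf13 and Klf7 intragenic regions that were less accessible in effector cells 0.08 ± 0.15 and 0.07 ± 0.13. A p that misses the threshold with 2 libraries a group does not show that memory and naive cells were alike.

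Summed over all regions of a gene, none of the 8 genes passed edgeR's test in any comparison (0 of 8 in each, against 9.65% of 15078 genes for effector against naive, 0.212% for memory against naive and 13.5% for memory against effector). At an unadjusted p under 0.05 there were 2 genes for effector against naive (Klf10 and Klf13, 26.0% of all genes). There was 1 for memory against naive (Klf12, 8.87% of all) and 1 for memory against effector (Klf12, 30.6% of all). DESeq2 called 0, 0 and 1 in the same order, and edgeR with replicate number as a block called 4, 1 and 4. The shares over all genes are again those of the main analysis, not of DESeq2 or the block. Klf12 summed to 195 and 193 CPM in memory, 131 and 172 CPM in effector and 159 and 167 CPM in naive libraries, the memory libraries being the highest. Its log2 fold change was 0.36 ± 0.12 for memory against effector (edgeR adjusted p = 0.0594), and 0.58 without effector replicate 2. It passed with DESeq2 (adjusted p = 0.0366), with no low-count filter (edgeR adjusted p = 0.0429), with a limit of 50 kb (0.0423) and with the replicate block (0.00381). Klf13 summed to 600.5 and 524 CPM in memory, 516 and 464 CPM in effector and 619 and 558 CPM in naive libraries. Its effector to naive value was −0.26 ± 0.10 (edgeR adjusted p = 0.129, but 0.0194 under the loess offset and 0.00344 with the replicate block). The block also called Klf2 (edgeR adjusted p = 0.00112), Klf4 (0.00651) and Klf10 (0.0214) for effector against naive. Klf6 had the highest sums, with 798 and 545 CPM in memory, 745 and 575 CPM in effector and 763 and 620.0 CPM in naive libraries, and replicate 1 exceeded replicate 2 in each group. Klf10 and Klf3 had no region that passed the test in any comparison: the smallest adjusted p was 0.0793 for Klf10 and 0.0825 for Klf3, both for memory against effector. One further Klf10 region, 31.7 kb from the gene, had too few counts to be tested, with 6 over the memory, 15 over the effector and 14 over the naive libraries.

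A group of 5 KLF regions differed far more between replicate numbers than between states. They were chosen after their values were seen. The region over the end of Klf2 (chr8:72320583-72323260) had 58.3 and 14.9 CPM in memory, 50 and 15 CPM in effector and 105 and 24.3 CPM in naive libraries, replicate 1 first. The region 86 bases beyond the downstream end of Klf4 (chr4:55523949-55527051) had 48.4 and 13.1 CPM in memory, 54.8 and 10.7 CPM in effector and 121 and 22.8 CPM in naive libraries. In every state replicate 1 was several times replicate 2: for Klf2 the ratio was 3.91 in memory, 3.40 in effector and 4.32 in naive libraries. With state in the model, the log2 difference of replicate 1 from replicate 2 was 1.95 ± 0.10 for Klf2 (edgeR adjusted p = 9.32e-16) and 2.22 ± 0.11 for Klf4 (edgeR adjusted p = 2.99e-16).

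In Klf6, 3 regions showed the same difference. They lay inside the gene (chr13:5866283-5867603), over its end (chr13:5869990-5870889) and 2.14 kb downstream (chr13:5872536-5873616). The first had 50.6 and 15.5 CPM in memory, 44.3 and 17.4 CPM in effector and 53.6 and 27.1 CPM in naive libraries. The region over the end had 21.7 and 6.35 CPM in memory, 27.3 and 7.16 CPM in effector and 42.8 and 10.7 CPM in naive libraries. The downstream region had 11.2 and 3.35 CPM in memory, 17.6 and 2.81 CPM in effector and 34.3 and 4.05 CPM in naive libraries. The log2 differences of replicate 1 from replicate 2 were 1.34 (edgeR adjusted p = 8.22e-10), 1.90 (5.93e-12) and 2.52 (3.39e-10). Between states, none of the 5 regions passed the test of the main analysis, which has no replicate term, in any comparison. The standard errors of their log2 fold changes, which take in the difference between replicates, ran from 0.92 to 1.68. With replicate number as a block, all 5 were less accessible in effector than in naive cells. Their log2 fold changes then ran from −1.12 to −0.46 (edgeR adjusted p from 5.63e-08 to 0.0137). For memory against naive the block called all but the Klf6 region inside the gene (−0.42, edgeR adjusted p = 0.101). Within each replicate number the naive library was above the memory and the effector library in all 5 regions. The Klf2 start region, less than 1 kb away from its gene-end region, had a replicate difference of 0.13 (edgeR adjusted p = 0.366), while the start regions of Klf4 and Klf6 had differences of 0.37 and 0.35 (edgeR adjusted p = 0.00206 and 0.00387).

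In all, 14 of the 92 KLF regions were higher in replicate 1 (15.2%, against 2.74% of all tested regions) and 0 were higher in replicate 2 (against 0.952%). Of the 14, 6 belonged to Klf6, 3 to Klf4, 3 to Klf13, 1 to Klf2 and 1 to Klf3. The count was 9 without the naive libraries and 11 without the memory libraries. Ordered by adjusted p among all 56007 regions, the 5 regions ranked 8, 11, 31, 38 and 47. The regions that led this order lay in or near Atf3, Cd69, Nr4a1, Tnfaip3, Rgs2 and Rgs1. Regions of Fos and Dusp1 came further down, among others of Ccr8, Ubb, Prdx6, Mrnip and H2-Q6. Some of these genes, such as Atf3, Nr4a1 and Fos, are known to be switched on within minutes to hours of cell stimulation. Replicate 1 was also the shallower library in each group, and the part of depth in this difference was not tested.

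**Figure D4:**
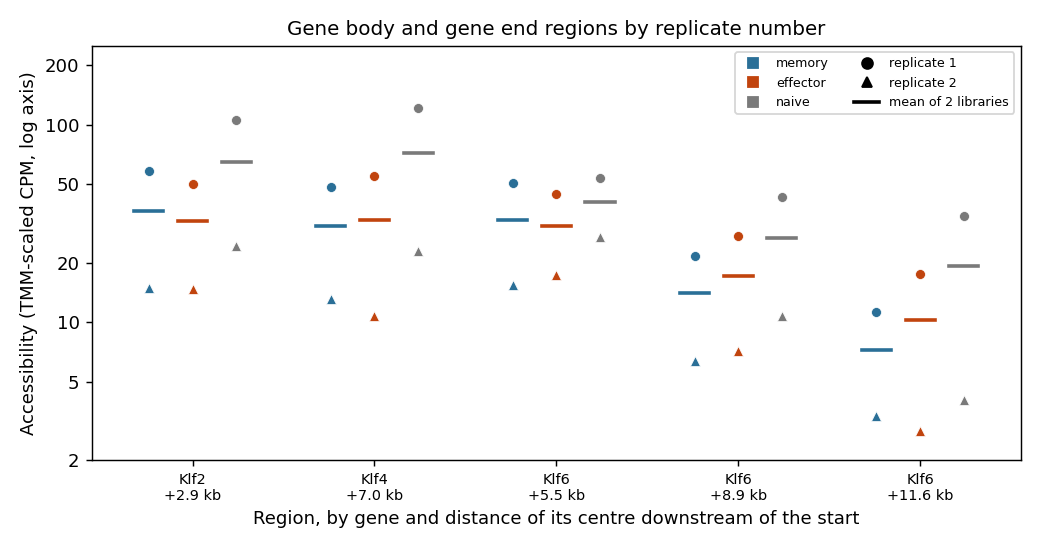
Accessibility (TMM-scaled CPM, log axis) of the 5 regions over or near the ends of Klf2, Klf4 and Klf6, labelled by the distance of the region's centre downstream of the start; circles are replicate 1, triangles replicate 2 and bars the mean of 2 libraries. In memory, effector and naive cells alike the circle stands above the triangle, as in Klf4 with 48.4 and 13.1 CPM in memory, 54.8 and 10.7 CPM in effector and 121 and 22.8 CPM in naive libraries.

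Genes of the same family and of the pathways around it were described from lists by the same calls. Other KLF and SP family genes had 67 tested regions, of which 4 were more and 5 less accessible in effector than in naive cells, and 8 more and 7 less accessible in memory than in effector cells. The shares over all tested regions were 11.5% more and 4.98% less for effector against naive, and 7.72% more and 13.6% less for memory against effector. A region inside Klf9, a factor induced by glucocorticoids, had 10.9 and 10.6 CPM in memory, 25.7 and 20.7 CPM in effector and 15.6 and 13.5 CPM in naive libraries (memory against effector −1.10 ± 0.20, edgeR adjusted p = 0.000858). A region 57.7 kb from Sp4 had 0.353 and 0.394 CPM in memory, 3.64 and 1.95 CPM in effector and 0.0801 and 0.352 CPM in naive libraries. Its counts were at or under 8 in each memory and naive library, and the effector to naive call (edgeR adjusted p = 0.00176) was lost without effector replicate 1 (0.0714).

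Regions of S1pr1, Ccr7 and Itgb7, genes of lymphocyte trafficking, changed in both directions. Inside Ccr7, the lymph node homing receptor, a region had 6.97 and 7.43 CPM in memory, 13.2 and 8.02 CPM in effector and 4.96 and 4.40 CPM in naive libraries (effector against naive 1.18 ± 0.28, edgeR adjusted p = 0.00837, but 0.192 without effector replicate 1 and 0.0565 without naive replicate 2). A region 26.9 kb from S1pr1, the receptor for tissue egress, had 20.9 and 23.0 CPM in memory, 7.72 and 15.4 CPM in effector and 21.3 and 24.2 CPM in naive libraries (effector against naive −0.97 ± 0.25, edgeR adjusted p = 0.0149, but 0.148 without effector replicate 1 and 0.0736 without naive replicate 2). Another S1pr1 region, at 33.2 kb, was less accessible in memory than in effector cells (edgeR adjusted p = 0.00136), with 2 and 6 counts in memory, 36 and 40 counts in effector and 14 and 16 counts in naive libraries. A region in Itgb7, an integrin subunit of gut homing, had 60.9 and 55.8 CPM in memory, against 37.7 and 32.6 CPM in effector libraries (log2 fold change 0.73 ± 0.14, edgeR adjusted p = 0.00182).

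The lists of upstream inputs and of cell cycle genes had calls in both directions. The MEK5-ERK5-MEF2 and FOXO genes, inputs to Klf2 and Klf4 in other cells, had 58 tested regions, with 2 more and 2 less accessible in effector than in naive cells and 2 more and 6 less accessible in memory than in effector cells. A region inside Foxo1 had 4.41 and 4.92 CPM in memory, 10.9 and 10.4 CPM in effector and 6.72 and 5.05 CPM in naive libraries (memory against effector −1.18 ± 0.26, edgeR adjusted p = 0.00453). The TGF-beta genes, inputs to Klf10, had 89 tested regions, with 9 more and 1 less accessible in effector than in naive cells and 4 more and 11 less accessible in memory than in effector cells. A region inside Tgfbr2, the type II receptor, had 6.70 and 6.60 CPM in memory, 17.4 and 12.4 CPM in effector and 4.96 and 4.87 CPM in naive libraries (effector against naive 1.59 ± 0.25, edgeR adjusted p = 0.000414). Another region inside Tgfbr2 was lowest in effector cells. It had 27.3 and 29.4 CPM in memory, 14.9 and 14.3 CPM in effector and 23.1 and 23.1 CPM in naive libraries (memory against effector 0.96 ± 0.17, edgeR adjusted p = 0.000706). The list of cell cycle genes linked to KLFs held exit genes such as Cdkn1a and Btg1. It also held Ccnd1, Ccnd2 and Myc, which are not genes of cell cycle exit. Of its 54 tested regions, 12 were more and 2 less accessible in effector than in naive cells. For memory against effector, 5 were more and 10 less accessible. Of the 12 gains in effector cells, 5 belonged to Myc, 4 to Btg1 and 1 each to Ccnd1, Ccnd2 and Cdkn1a. Of all tested regions, 11.5% were more and 4.98% less accessible for effector against naive, and 7.72% more and 13.6% less for memory against effector. The median log2 fold changes for effector against naive were 0.04 for the other family genes and −0.16 for the MEK5-ERK5-MEF2 and FOXO genes. They were 0.03 for TGF-beta and 0.05 for the cell cycle list, against 0.00 over all tested regions. For memory against effector they were 0.07, 0.03, −0.01 and −0.15 in the same order, against −0.04 over all tested regions.

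The genes whose summed accessibility moved most like that of a KLF gene over the 6 libraries were found by the root mean square difference of centred log2 CPM among 12014 genes of at least 10 CPM. They were Rgs2 (0.0569) and Jund (0.0632) for Klf2, Ubb (0.0614) and Bzw1 (0.0662) for Klf4, and Tpd52l2 (0.0381) and Zfp36l1 (0.0407) for Klf6. For Klf7 they were Dtl (0.0169) and Rab21 (0.0198), for Klf10 Vps26b (0.0147) and Rbpms (0.0207), and for Klf13 Tcf4 (0.0158) and Ppp1r13l (0.0206). For Klf3 they were Bod1l (0.0312) and Ubald1 (0.0325), and for Klf12 Dtymk (0.0366) and Vmn2r99 (0.0373). With 6 libraries and 12014 genes, close likeness of this kind is a description of these libraries. It takes in differences between replicate numbers as well as between states. The sums of Klf2, Klf4 and Klf6 were higher in replicate 1 in every state. Regions in or near Rgs2, Ubb and Zfp36l1 were among those with the smallest adjusted p in the replicate test, also with replicate 1 higher.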

How the data were processed

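Raw counts were deposited by the authors for 57203 regions shared by all 6 libraries, with no normalization, and were used unchanged. Per the submitters' processing notes the build was mm10, and fastp, Bowtie2 2.5.3, MACS2, ChIPseeker 1.28.3, bedtools 2.31.1, edgeR 3.34.0 and deepTools 3.5.4 are named with no role. Not given in the sources used here were the merging of regions, the counting unit (reads or shifted insertions), the duplicate filter and the base from which starts count (0 or 1). Coordinates are printed as deposited.

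Regions were assigned to 21900 protein-coding RefSeq genes of GRCm38.p6: the gene overlapped, curated genes first, or else the nearest gene end within 100 kb. In all 54123 regions (94.6%) received a gene. The KLF genes and all lists were chosen with earlier results of these data known. Counts were fitted with edgeR 4.0.16 (limma 3.58.1, R 4.3.3; filterByExpr by group, TMM, trended dispersion, robust quasi-likelihood F test, two-sided, 6 libraries, 3 residual degrees of freedom). Calls used p-values adjusted by Benjamini-Hochberg across the 56007 tested regions, with a threshold of 0.05. Counts summed per gene were fitted the same way over 15078 genes. Each standard error is the log2 value over the root of its F statistic. For groups with 20 or fewer counts the ratio of scaled counts has an exact interval. The scripts were tested on simulated data.

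The text names each gene's start region, its region with the highest mean CPM and up to 3 called regions per comparison and direction with the smallest adjusted p, up to 2 regions per list and comparison, and 2 like genes per KLF gene. Exceptions are said to have been chosen after their values were seen. Some items of these lists are not reported here. Summed markers of other types, in memory, effector and naive libraries, were 123 and 144, 124 and 143, and 122 and 128 CPM for T cells, 406 and 407, 349 and 358, and 436 and 443 CPM for mast cells and basophils, 171 and 177, 142 and 146, and 136 and 154 CPM for epithelium, and 119 and 109, 119.9 and 121, and 119 and 123 CPM for stroma.

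Alternatives tried were DESeq2 1.42.0, scaling by RLE, by total counts alone, by TMM on the 20% highest regions or by a loess offset (span 0.3), testing without the low-count filter, a replicate block, leaving out each library, and an assignment limit of 50 kb. The test of replicate 1 against replicate 2, with group in the model, was added after seeing the data, with RLE, total counts, the loess offset and each group left out as its alternatives.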

Additional observations from a re-analysis of the deposited data

How the results depend on the processing

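Of the calls on named regions, 4 of 12 for effector against naive and 7 of 18 for memory against effector held in all 13 alternatives. The count of KLF gains in effector over naive cells (9 in the main analysis) was 14 with the replicate block, 5 with a limit of 50 kb and 4 to 10 with a library left out. The count of losses (5) was 2 with TMM on the highest regions, 3 with the loess offset, 24 with the replicate block and 2 to 9 with a library left out. For memory against effector, gains (9) were 2 with TMM on the highest regions, 6 with the loess offset, 20 with the replicate block and 4 to 12 with a library left out, and losses (12) were 8 with the loess offset and 6 to 12 with a library left out. For memory against naive (0 and 0), the replicate block gave 1 gain and 6 losses, and leaving out libraries gave 0 to 0. Shares of all regions or all genes called under the block are not given here. Its counts therefore cannot be read as particular to the KLF genes. Summed genes (0 in each comparison) were 1 with the loess offset and 4 with the block for effector against naive, 1 with the block for memory against naive, and 1 with no low-count filter, 1 with DESeq2, 1 with the 50 kb limit, 4 with the block and 0 to 1 with a library left out for memory against effector.

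The replicate number was checked as a pairing through the deviations of replicate 1 from replicate 2 over 56007 regions, whose correlation was 0.188 between memory and effector, 0.271 between memory and naive and 0.235 between effector and naive libraries. What the numbers mark is not in the labels, so the block was kept as an alternative. With it, the 5 regions that differed most by replicate number were less accessible in effector than in naive cells, with log2 fold changes of −1.12 for Klf4, −0.92 for Klf2 and −0.81, −0.62 and −0.46 for Klf6 (edgeR adjusted p from 5.63e-08 to 0.0137). For memory against naive 4 of the 5 passed, at −1.09 for Klf4, −0.78 for Klf2 and −1.07 and −0.88 for Klf6 (edgeR adjusted p from 2.02e-06 to 0.0102), and the Klf6 region inside the gene, at −0.42, did not (0.101). The count of regions higher in replicate 1 (14) was 15 with RLE, 13 with total counts, 13 with the loess offset, 9 without the naive, 14 without the effector and 11 without the memory libraries.

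Reversed signs were seen in values that did not pass the test, and the cause was not tested. For effector against naive, the Klf3 start region went to 0.10 with TMM on the highest regions, 0.06 with the loess offset and ran from −0.21 to 0.02 with a library left out, and the Klf12 region at 100209348 ran from −0.06 to 0.13. For memory against effector, the Klf3 start region went to −0.11 with total counts alone, −0.23 with TMM on the highest regions, −0.20 with the loess offset and −0.07 to 0.10 with a library left out. The Klf4 start region went to −0.02 with TMM on the highest regions, −0.09 with the loess offset and −0.03 to 0.47 with a library left out, the Klf13 start region to −0.06 and −0.13 with these scalings, and the Klf10 end region to −0.00 with the loess offset. With 2 libraries a group and 3 residual degrees of freedom, small changes of low-count regions were not detectable at this depth.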
